A study of Mus musculus with 12 samples.

Results

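The genes described here are 35 members of the unfolded protein response and of the integrated stress response, out of 18193 genes with a probe set of their own on the array. They were chosen by name, as the platform's gene symbols give them, and each was read from the brightest of its probe sets. They fall into a UPR arm of 21 genes (chaperones, lectins, disulfide isomerases, degradation factors and retrieval receptors of the endoplasmic reticulum, ER), an ATF4 arm of 10 genes, and 4 genes that sense the stress or carry its first signal. All 35 were bright enough to be among the 10916 genes tested. For 12 of them, Kdelr3, Creld2 and Atf3 included, the array held only 1 probe set. The cells were B16-F10, an established mouse melanoma line, transfected with plasmids built on pMES, which drives its insert from the chick beta-actin promoter and makes EGFP from the same message through an IRES. The control group received pMES with no insert, the second group pMES with chicken FoxD3, and the third pMES with FoxD3-VP16, in which a VP16 activation domain stands in place of the C-terminal part of FoxD3 with its repression domain. Cells positive for EGFP were sorted 24 hours after transfection, so all groups, control included, had been transfected, made EGFP and passed through the sorter. There were 4 arrays per vector, numbered 1 to 4. The labels do not say whether these came from separate cultures, so p-values measure only how these samples vary among themselves, and that variation may be technical.

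When misfolded protein builds up in the ER, its membrane sensors Ern1 (IRE1), Eif2ak3 (PERK) and Atf6 start the unfolded protein response. Ern1 splices the message of Xbp1 and Atf6 is cut to a transcription factor, and both raise chaperones such as Hspa5 (BiP) through elements in their promoters. Eif2ak3 phosphorylates the initiation factor eIF2, which lowers protein synthesis but favours translation of Atf4. Atf4 in turn raises Ddit3 (CHOP), Atf3, Trib3 and Chac1, and because other kinases also act on eIF2, this arm answers to lack of amino acids and other stresses as well and is then called the integrated stress response. Members are described by arm for that reason.

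Levels are log2(intensity + 16) after quantile normalization of the deposited intensities, so changes of dim genes are understated. Arrays sharing a replicate number deviated together, and 2 limma fits are given where they differ: the unblocked fit, which leaves the number aside, and the blocked fit, with the number as a block. Arrays numbered 3 and 4 also deviated together across vectors (correlations of 0.37 to 0.54, against 0.37 to 0.67 within a number). Pairs numbered 3 and 4 may therefore not be independent of each other. A gene is said to have risen or fallen where its adjusted p, over all 10916 genes, was under 0.05 in the fit named. The arrays numbered 1, and to a lesser extent those numbered 2, stood apart from the rest. Hybridization controls lay at a log2 level of 14.4 ± 0.10 (SD, n = 3) on the arrays numbered 1. On those numbered 2, 3 and 4 they lay at 12.8 ± 0.10, 11.6 ± 0.10 and 11.6 ± 0.04. The Gapdh 3' minus 5' difference, a sign of RNA quality, was 0.66 ± 0.10, -0.01 ± 0.05, -0.17 ± 0.04 and -0.18 ± 0.07 for numbers 1 to 4. The same difference for actin was 1.59 to 1.99 on the arrays numbered 1 and 1.29 to 1.67 on the others, so it overlapped. Each vector had 1 array of every number. All 8 melanocyte markers examined lay above the brightness limit of 5.98 (log2 means 10.8 to 15.4), as did 4 of 8 fibroblast markers, 1 of 5 leukocyte markers, 0 of 3 keratinocyte and 0 of 3 endothelial markers. The summed intensity of the melanocyte markers had a log2 value of 17.43 to 17.59 with the empty vector, 17.27 to 17.37 with FoxD3 and 17.30 to 17.45 with FoxD3-VP16. With FoxD3, 7 of these 8 markers had a change below 0. Unblocked, 1 rose (Sox10) and 1 fell (Mitf), where 2.89% of all tested genes rose and 1.12% fell. The blocked fit called 1 rise and 4 falls of these markers, against 11.8% and 9.21% of all genes. With FoxD3-VP16, 0 rose and 1 fell (Sox10) unblocked, against 0.522% and 0.0733% of all genes. The blocked fit called 1 rise and 3 falls with FoxD3-VP16, against 5.73% and 5.41%. The summed intensity of the fibroblast markers had a log2 value of 8.80 to 9.30 with the empty vector, 10.10 to 10.44 with FoxD3 and 9.68 to 10.17 with FoxD3-VP16. Of these markers Col1a1 (2.68, adjusted p = 0.0102) and Pdgfrb (1.84, adjusted p = 0.00237) rose with FoxD3 in the unblocked fit. Pdgfra (1.21, adjusted p = 0.0672) and Col1a2 (-0.72, adjusted p = 0.448) did not pass it, and with FoxD3-VP16 only Pdgfrb rose (1.60, adjusted p = 0.024), while Dcn, Lum, Col3a1 and Thy1 were not above the limit, and the part of these marker differences in the results below was not tested.

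Some of the members' promoters hold known stress response motifs, shown here because the arms are defined by the factors that bind them. RefSeq windows from 250 bases before to 50 bases after the start (assembly GRCm38.p6) were found for 31 of the 35 members (not for Hyou1, Manf, Kdelr2 and Atf6), and 5 motifs were searched on both strands. ERSE (CCAAT, any 9 bases, then CCACG) is the element of Atf6 and Xbp1 on chaperone promoters, and ERSE-II (ATTGG, any 1 base, then CCACG) is its shorter relative. The UPRE core (TGACGTGG) is bound by Xbp1 and Atf6, the composite site TGATGNAA by Atf4 with a C/EBP partner, and the CRE (TGACGTCA) by factors of the CREB and ATF family. ERSE, ERSE-II and the complement of the UPRE core all hold the letters CCACG. An ERSE was found in 8 of 18 UPR arm windows (Hspa5, Hsp90b1, Dnajc3, Creld2, Calr, Canx, Pdia6 and Syvn1) and in 0 of 10 ATF4 arm windows, where 0.119% of all 32851 mouse windows hold one. ERSE-II was found in Dnajb11 and Herpud1 (0.0365% of all windows) and the UPRE core in Kdelr3 (0.676%). The composite site was found in 4 of 10 ATF4 arm windows (Atf3, Trib3, Chac1 and Asns) and in 2 of 18 UPR arm windows (Herpud1 and Kdelr1), against 3.97% of all windows. Ppp1r15a held a CRE (1.79%), and the 3 sensor windows held none of the 5 motifs. The matches of Dnajb11 and Trib3 lie after the start, by 7 and 14 bases. A match is a description of these letters, not a bound site.

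**Figure D1:**
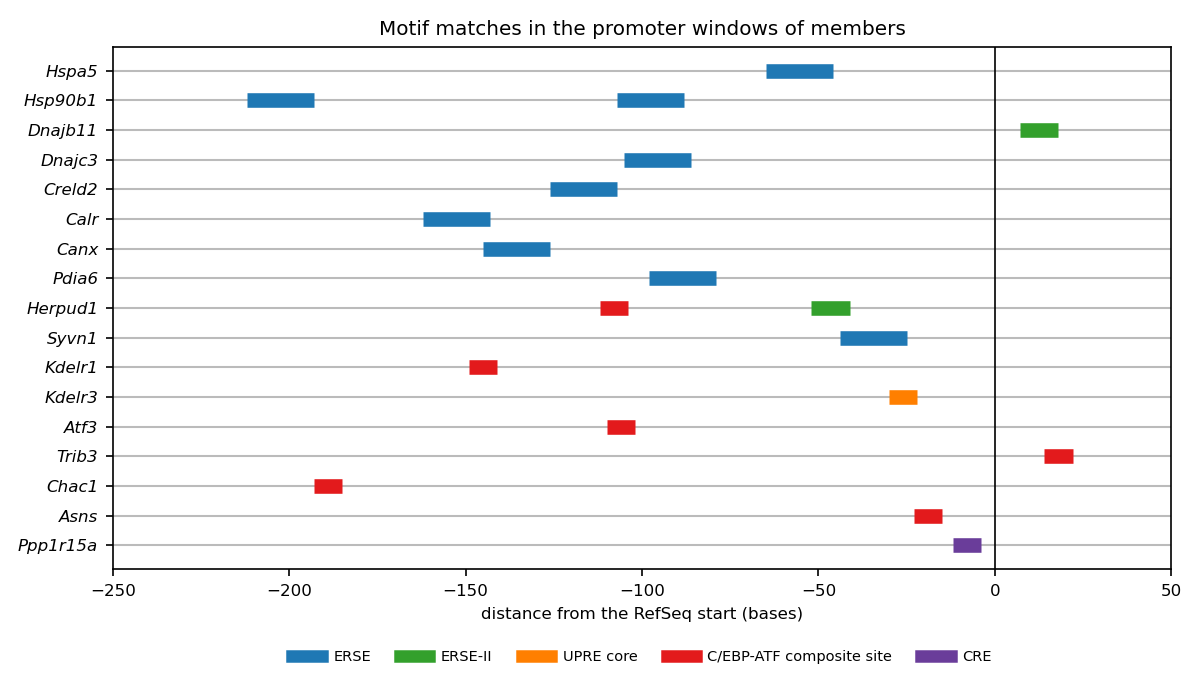
Motif matches in the promoter windows of the 17 members with at least 1 match; the horizontal axis is the distance in bases from the RefSeq start and each coloured block is 1 match. ERSE matches lie on 8 UPR arm promoters, and Hsp90b1 holds 2 of them, 212 and 107 bases before the start, while the composite site lies on 4 ATF4 arm and 2 UPR arm promoters.

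The following stretches were taken from those windows for 6 members that differ in motif or in response, each 5′ to 3′ on the gene's strand with the matches in capitals. A match that reads as the complement of the letters given above lies on the other strand. Hspa5 (chr2:34772000-34772089, plus strand) carries an ERSE and Creld2 (chr15:88819506-88819645, plus strand) an ERSE on the other strand. Kdelr3 (chr15:79516278-79516407, plus strand) carries the UPRE core on the other strand, 30 bases before the start. Herpud1 (chr8:94386279-94386428, plus strand) carries both a composite site on the other strand and, further on, an ERSE-II. Atf3 (chr1:191183334-191183483, minus strand) and Chac1 (chr2:119351032-119351241, plus strand) carry the composite site, also on the other strand.
Hspa5: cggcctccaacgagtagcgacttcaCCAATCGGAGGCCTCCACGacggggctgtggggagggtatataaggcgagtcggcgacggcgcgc
Creld2: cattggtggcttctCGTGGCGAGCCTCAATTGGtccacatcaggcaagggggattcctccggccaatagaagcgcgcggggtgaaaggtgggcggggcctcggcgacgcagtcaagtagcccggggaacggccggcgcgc
Kdelr3: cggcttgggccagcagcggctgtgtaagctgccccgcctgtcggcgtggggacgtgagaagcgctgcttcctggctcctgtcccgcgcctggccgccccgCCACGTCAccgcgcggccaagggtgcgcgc
Herpud1: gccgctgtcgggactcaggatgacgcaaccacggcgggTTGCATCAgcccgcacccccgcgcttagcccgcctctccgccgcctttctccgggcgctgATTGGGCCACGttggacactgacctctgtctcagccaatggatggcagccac
Atf3: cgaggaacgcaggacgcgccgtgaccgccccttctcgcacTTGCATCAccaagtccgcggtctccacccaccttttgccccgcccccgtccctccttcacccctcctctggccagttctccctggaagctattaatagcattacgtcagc
Chac1: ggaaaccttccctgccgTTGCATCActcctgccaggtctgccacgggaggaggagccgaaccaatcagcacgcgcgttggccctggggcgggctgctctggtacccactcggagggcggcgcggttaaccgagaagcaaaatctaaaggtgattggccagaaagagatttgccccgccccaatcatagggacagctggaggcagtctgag

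Few of the 35 members passed the unblocked fit in any comparison, and most of those that passed the blocked fit were lower with FoxD3-VP16. With FoxD3 against the empty vector, 1 member rose and 0 fell in the unblocked fit, where 2.89% of all tested genes rose and 1.12% fell; at an unadjusted p under 0.05, 1 was higher and 1 lower. The blocked fit called 5 rises and 1 fall, against 11.8% and 9.21% of all genes. With FoxD3-VP16 against the empty vector, 0 members passed limma's unblocked fit (0.522% of all genes rose and 0.0733% fell), with 4 lower and 0 higher at an unadjusted p under 0.05. The blocked fit called 9 falls and 0 rises there, against 5.41% and 5.73%. Between the 2 inserts, FoxD3-VP16 against FoxD3, 3 members fell and 0 rose in limma's unblocked fit, where 5.13% of all genes fell and 4.44% rose. At an unadjusted p under 0.05, 8 were lower and 1 higher there. The share of all tested genes at an unadjusted p under 0.05 was not counted. Counts at that threshold, here and below, therefore cannot be set against a share of all genes. The blocked fit called 14 falls and 3 rises between the inserts, against 17.5% and 14.6% of all genes. The comparisons share arrays, so they are not independent of each other.

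By arm, the UPR arm gave 4 rises and 0 falls of 21 with FoxD3 in the blocked fit, 0 rises and 1 fall with FoxD3-VP16, and 2 rises and 6 falls between the inserts. The ATF4 arm gave 1 rise and 0 falls of 10 with FoxD3, 0 rises and 6 falls with FoxD3-VP16, and 0 rises and 7 falls between the inserts. Over all tested genes the blocked fit called 11.8% up and 9.21% down with FoxD3, and 5.73% and 5.41% with FoxD3-VP16. Between the inserts it called 14.6% up and 17.5% down. The 3 unblocked falls between the inserts were Kdelr3 and Herpud1 of the UPR arm and Atf3 of the ATF4 arm. The median change with FoxD3-VP16 was -0.53 over the ATF4 arm, -0.04 over the UPR arm and -0.02 over all tested genes. A change below 0 was found in 10 of 10 ATF4 arm genes, 14 of 21 UPR arm genes and 5779 of 10916 tested genes. Asns (-0.06) and Sesn2 (-0.02) were barely below 0, and a second Asns probe set gave 0.02. With FoxD3 the medians were 0.04 for the ATF4 arm, 0.12 for the UPR arm and -0.004 for all genes. Without the arrays numbered 1 the unblocked fit called 2 rises and 1 fall with FoxD3, 0 and 2 with FoxD3-VP16, and 1 and 6 between the inserts, and the blocked fit 5 and 2, 1 and 11, and 3 and 14. Without those numbered 3 the blocked fit called 4 and 1, 0 and 5, and 2 and 14, and without those numbered 4 it called 2 and 0, 0 and 6, and 1 and 10. The share of all genes called was not counted for these reduced fits, so their counts cannot be set against it. Of the 32 changes the blocked fit called, 18 were called in all 7 of its alternatives.

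**Figure D2:**
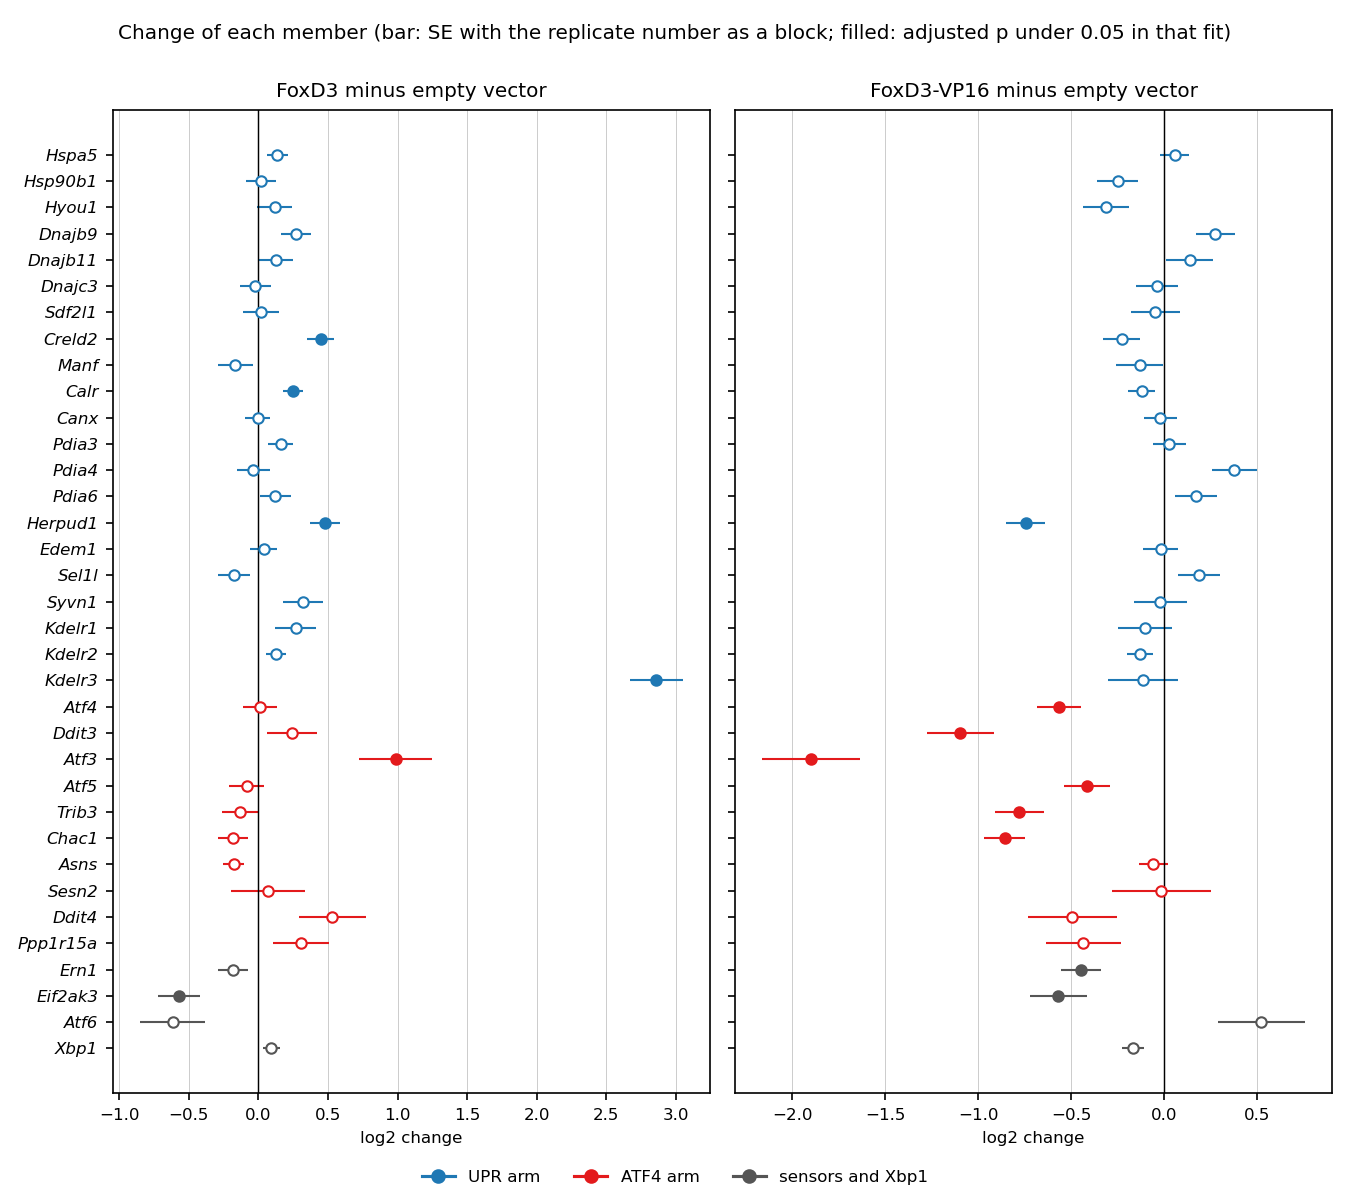
Log2 change of each of the 35 members with FoxD3 (left) and with FoxD3-VP16 (right) against the empty vector, with bars of 1 SE from the blocked fit and filled points for an adjusted p under 0.05 in that fit. Kdelr3 stands alone at 2.86 on the left, and on the right 6 of the 10 ATF4 arm genes are filled and below 0.

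Non-overlap of the arrays gives a view that uses neither fit. The 4 FoxD3 arrays all lay above the 4 empty-vector arrays for Herpud1 and Kdelr3 and all below them for Ern1, where 6.77% and 4.72% of all genes were so placed. With FoxD3-VP16, Atf3 and Ern1 lay wholly below the empty vector and 0 members wholly above (2.44% and 3.27% of all genes). Between the inserts, Kdelr3, Herpud1, Atf3 and Ern1 lay wholly lower with FoxD3-VP16 and 0 members wholly higher (10.1% and 8.05%). Members were lower in 4 of 4 pairs of the same number with FoxD3-VP16 than with the empty vector in 7 of 10 cases in the ATF4 arm and in 4 of 21 in the UPR arm, as were 15.1% of all tested genes. Members were higher in 4 of 4 pairs in 0 and 2 cases, against 14.3% of all genes.

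The retrieval receptors bring chaperones that end in KDEL back from the Golgi to the ER, and of the 3 only Kdelr3 had changed with FoxD3 in either fit. Kdelr3 lay at log2 levels of 7.19, 8.66, 7.59 and 8.01 on the empty-vector arrays 1 to 4, at 10.07, 11.18, 10.78 and 10.85 with FoxD3 and at 6.70, 8.42, 8.27 and 7.59 with FoxD3-VP16. All 4 FoxD3 arrays were above all 8 others, and the other vectors overlapped each other. Kdelr3 was 7.26-fold higher with FoxD3 than with the empty vector (log2 change 2.86, SE 0.40, adjusted p = 0.00149) and 7.87-fold lower with FoxD3-VP16 than with FoxD3 (-2.98, SE 0.40, adjusted p = 0.000529). The rise was between 2.52 and 3.19 in the 4 pairs of the same number. Without the 3 arrays numbered 4 it was 2.85 with an unblocked adjusted p of 0.0533, while the blocked fit called it throughout its alternatives (highest adjusted p = 6.31e-05). With FoxD3-VP16 Kdelr3 differed from the empty vector by -0.12 (SE 0.40, adjusted p = 0.977), with pairs from -0.48 to 0.68. In bulk RNA such as this, a change in the share of cells that express a gene and a change in RNA per cell cannot be told apart.

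Kdelr1 had levels of 11.41, 11.43, 10.75 and 10.47 with the empty vector, 11.82, 11.05, 11.02 and 11.24 with FoxD3 and 11.12, 11.06, 10.85 and 10.62 with FoxD3-VP16. The 3 groups overlapped, and its changes of 0.27 with FoxD3 and -0.10 with FoxD3-VP16 did not pass either fit. Kdelr2 lay at 13.05, 13.01, 12.64 and 12.60 with the empty vector, at 13.01, 13.14, 12.78 and 12.89 with FoxD3 and at 12.88, 12.88, 12.61 and 12.41 with FoxD3-VP16. It was lower in 4 of 4 pairs with FoxD3-VP16 than with FoxD3 and fell by 0.26 in the blocked fit (adjusted p = 0.0134; unblocked 0.348), a call held in 4 of 7 alternatives.

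**Figure D3:**
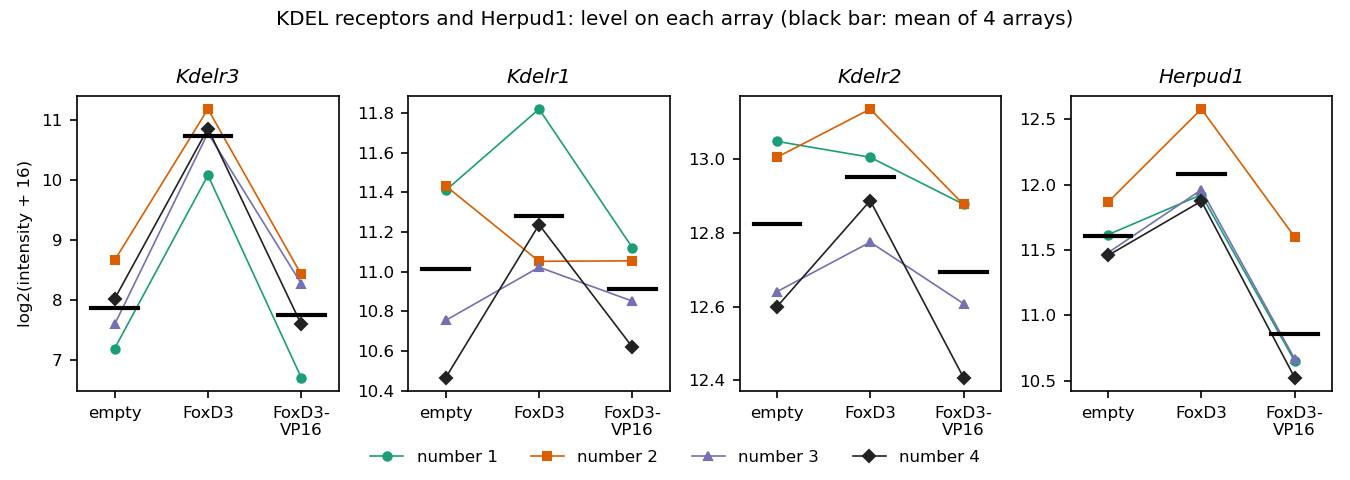
Level of the 3 KDEL receptors and of Herpud1 on each of the 12 arrays as log2(intensity + 16), with lines joining arrays of the same number and black bars at the mean of 4. The FoxD3 arrays of Kdelr3 (10.07 to 11.18) lie above all others (6.70 to 8.66), and each Herpud1 line runs up to FoxD3 and down to FoxD3-VP16.

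The degradation factors take misfolded proteins out of the ER, and Herpud1, which helps to assemble the ubiquitin ligase complex around Syvn1, moved in opposite directions with the 2 inserts in the blocked fit. Its levels were 11.62, 11.87, 11.48 and 11.46 with the empty vector, 11.92, 12.58, 11.96 and 11.87 with FoxD3 and 10.65, 11.60, 10.67 and 10.52 with FoxD3-VP16. The FoxD3 arrays lay above all empty-vector arrays, and 3 of the 4 FoxD3-VP16 arrays lay below them, the array numbered 2 being within their range. Herpud1 rose by 0.48 with FoxD3 (SE 0.11, blocked adjusted p = 0.00629; unblocked 0.344) and fell by 0.75 with FoxD3-VP16 (SE 0.11, blocked adjusted p = 0.00112; unblocked 0.241). Between the inserts it was 2.34-fold lower with FoxD3-VP16 (log2 change -1.22, unblocked SE 0.23, adjusted p = 0.00515). That unblocked call was lost without the arrays numbered 3 (adjusted p = 0.0773) or 4 (0.0726), while the blocked fit held all 3 calls in its 7 alternatives. Both probe sets of Herpud1 gave the same directions, with changes between the inserts of -1.27 and -1.22. Its promoter is the only 1 of the 31 windows with both an ERSE-II and a composite site, as printed above.

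Sel1l, the adaptor of the Syvn1 ligase, had levels of 11.61, 11.88, 10.85 and 10.96 with the empty vector, 11.51, 11.60, 10.76 and 10.72 with FoxD3 and 11.55, 11.82, 11.45 and 11.24 with FoxD3-VP16. The groups overlapped, the arrays numbered 1 and 2 being the highest with every vector, and Sel1l was higher with FoxD3-VP16 than with FoxD3 by 0.36 (blocked adjusted p = 0.0246; unblocked 0.476). All 5 of its probe sets had a change above 0 there (0.29 to 0.61), and 4 of 7 blocked alternatives held the call. The ligase Syvn1 itself (0.32 with FoxD3, -0.02 with FoxD3-VP16) and Edem1, which marks glycoproteins for disposal (0.04 and -0.02), passed neither fit in any of the 3 comparisons.

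Among the 9 ER chaperones and cochaperones, Hspa5, the major chaperone and the textbook reporter of the response, showed no call. Its levels were 15.05, 14.84, 14.44 and 14.44 with the empty vector, 15.04, 14.70, 14.80 and 14.78 with FoxD3 and 15.09, 14.70, 14.52 and 14.69 with FoxD3-VP16. The array numbered 1 was highest with each vector and the 3 groups overlapped. The changes were 0.14 with FoxD3 (SE 0.16, adjusted p = 0.785; blocked 0.226) and 0.06 with FoxD3-VP16 (SE 0.16, adjusted p = 0.974; blocked 0.687). With array quality weights the first became 0.31 and passed (adjusted p = 0.0025), and the second turned below 0 when single arrays were left out. Other probe sets of Hspa5 changed by 0.24 and -0.14 with FoxD3 and by 0.10 and 0.03 with FoxD3-VP16. The mean level of the probe set taken was 14.76, above 99.8% of genes, and whether changes are understated at that level was not tested. A p above the threshold does not show that Hspa5 did not change.

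Creld2, a secreted ER stress protein with EGF-like repeats, was the one chaperone-group member that rose with FoxD3. It lay at 11.10, 11.79, 11.61 and 11.59 with the empty vector, at 11.47, 12.02, 12.19 and 12.21 with FoxD3 and at 10.54, 11.57, 11.51 and 11.55 with FoxD3-VP16. The array numbered 1 was lowest with every vector, and within each number FoxD3 was highest and FoxD3-VP16 lowest. Its rise was 0.45 with FoxD3 (SE 0.10, blocked adjusted p = 0.00614; unblocked 0.424) and its difference between the inserts -0.68 (SE 0.10, blocked adjusted p = 0.000201; unblocked 0.116). Without the arrays numbered 1 both also passed the unblocked fit (0.46, adjusted p = 0.0181, and -0.58, adjusted p = 0.00336). Without those numbered 4 the rise no longer passed the blocked fit (adjusted p = 0.0637).

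Hyou1, a large chaperone that exchanges the nucleotide of Hspa5, had levels of 11.32, 9.96, 9.51 and 9.70 with the empty vector, 11.35, 9.87, 9.74 and 10.00 with FoxD3 and 10.59, 9.69, 9.43 and 9.52 with FoxD3-VP16. The arrays numbered 1 were the highest with every vector. Hyou1 fell by 0.43 with FoxD3-VP16 against FoxD3 in the blocked fit (adjusted p = 0.0171; unblocked 0.638), a call held in 4 of 7 alternatives. The remaining chaperones, Hsp90b1 (GRP94), the J-domain proteins Dnajb9, Dnajb11 and Dnajc3, Sdf2l1 and the secreted factor Manf, passed neither fit in any comparison. Their changes ran from -0.17 (Manf) to 0.27 (Dnajb9) with FoxD3 and from -0.25 (Hsp90b1) to 0.27 (Dnajb9) with FoxD3-VP16, and Dnajb9 was higher in 4 of 4 pairs in both. Of the 8 members with an ERSE in the promoter, Creld2 and Calr rose with FoxD3 in the blocked fit and the other 6 passed neither fit in any comparison. Of the 10 UPR arm members whose window held no ERSE, Herpud1 and Kdelr3 rose with FoxD3 in that fit, where 11.8% of all genes did.

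Of the lectins and disulfide isomerases, Calr (calreticulin, a lectin chaperone that also stores calcium) lay at 13.50, 13.22, 13.19 and 13.28 with the empty vector, at 13.72, 13.25, 13.65 and 13.55 with FoxD3 and at 13.27, 12.94, 13.19 and 13.30 with FoxD3-VP16. FoxD3 was highest within every number. Calr rose by 0.25 with FoxD3 (SE 0.07, blocked adjusted p = 0.026; unblocked 0.395), though only 2 of 7 blocked alternatives held that call, and was lower by -0.37 with FoxD3-VP16 than with FoxD3 (SE 0.07, blocked adjusted p = 0.00162; unblocked 0.103), which all 7 held. The isomerase Pdia4 lay at 10.99, 12.49, 11.59 and 11.68 with the empty vector, at 10.59, 12.21, 11.99 and 11.81 with FoxD3 and at 11.08, 12.57, 12.40 and 12.20 with FoxD3-VP16. The arrays numbered 1 were the lowest, and FoxD3-VP16 gave the higher Pdia4 level of the 2 inserts in 4 of 4 pairs (0.41, SE 0.12, blocked adjusted p = 0.018; unblocked 0.631; 5 of 7 alternatives). The membrane lectin Canx and the isomerases Pdia3 and Pdia6 passed neither fit, with changes of -0.007, 0.16 and 0.12 with FoxD3 and -0.02, 0.03 and 0.17 with FoxD3-VP16.

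In the ATF4 arm 6 of 10 genes fell with FoxD3-VP16 against the empty vector in the blocked fit, Atf4 itself among them. Atf4, whose protein is controlled mostly at translation, had RNA levels of 12.43, 13.995, 13.24 and 13.33 with the empty vector, 12.43, 13.99, 13.34 and 13.29 with FoxD3 and 11.32, 13.73, 12.70 and 12.99 with FoxD3-VP16. The array numbered 2 was highest and that numbered 1 lowest with every vector, so the groups overlapped although FoxD3-VP16 was lowest within every number. The change with FoxD3 was 0.01 (blocked SE 0.12, adjusted p = 0.963), and its sign turned under several alternatives. With FoxD3-VP16 Atf4 fell by 0.57 against the empty vector (blocked SE 0.12, adjusted p = 0.0109; unblocked 0.799) and by 0.58 against FoxD3 (blocked adjusted p = 0.00256; unblocked 0.536). The first call was lost without the arrays numbered 3 (blocked adjusted p = 0.0522) and with the mean of all probe sets (0.055), the second in none of 7 alternatives. A second bright probe set gave -0.58 and -0.62.

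Ddit3, the factor CHOP that promotes cell death under lasting stress, had levels of 10.54, 12.98, 11.68 and 11.72 with the empty vector, 11.20, 13.27, 11.68 and 11.73 with FoxD3 and 10.32, 12.08, 9.94 and 10.19 with FoxD3-VP16. The arrays numbered 2 were again highest, and FoxD3-VP16 was lowest within every number. Ddit3 fell by 1.10 with FoxD3-VP16, 2.14-fold (blocked SE 0.18, adjusted p = 0.00265; unblocked 0.565), and by 1.34 against FoxD3 (blocked adjusted p = 0.000113; unblocked 0.179), and both calls held in 7 of 7 blocked alternatives. Without the arrays numbered 2 the second also passed the unblocked fit (-1.38, adjusted p = 0.0287). With FoxD3 its change was 0.24 (blocked adjusted p = 0.376). Another bright probe set of Ddit3 gave changes of -0.65 with FoxD3-VP16 and -0.88 between the inserts.

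Atf3, a stress-induced factor of the same family, had the largest fall of any member with FoxD3-VP16 against the empty vector. Its levels were 9.92, 10.07, 11.64 and 11.39 with the empty vector, 10.58, 11.68, 12.34 and 12.37 with FoxD3 and 8.17, 9.49, 8.76 and 9.02 with FoxD3-VP16. Every FoxD3-VP16 array lay below every array of the other vectors, while FoxD3 and the empty vector overlapped. Atf3 was 3.73-fold lower with FoxD3-VP16 than with the empty vector (log2 change -1.90; blocked SE 0.26, adjusted p = 0.00102; unblocked 0.115). It was 7.38-fold lower than with FoxD3 (-2.88, unblocked SE 0.47, adjusted p = 0.00181), a call that 32 of 32 alternatives held. With FoxD3 Atf3 rose by 0.99 in the blocked fit (SE 0.26, adjusted p = 0.018; unblocked 0.325), except without the arrays numbered 4 (adjusted p = 0.0679). Atf3 was thus the only ATF4 arm gene called in both directions, as Herpud1 was in the UPR arm.

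Trib3, a pseudokinase that Ddit3 and Atf4 induce, lay at 8.98, 12.13, 9.69 and 10.06 with the empty vector, at 9.28, 11.76, 9.68 and 9.62 with FoxD3 and at 8.56, 11.32, 8.87 and 8.996 with FoxD3-VP16. The arrays numbered 2 were highest with every vector, and FoxD3-VP16 was lowest within every number. Trib3 fell by 0.78 with FoxD3-VP16 (blocked SE 0.13, adjusted p = 0.00321; unblocked 0.844) and by 0.65 against FoxD3 (blocked adjusted p = 0.00214). Chac1, which breaks down glutathione, lay at 11.31, 12.38, 10.29 and 10.34 with the empty vector, at 11.23, 12.13, 10.07 and 10.16 with FoxD3 and at 10.18, 11.78, 9.33 and 9.59 with FoxD3-VP16. It fell by 0.86 with FoxD3-VP16 (blocked SE 0.11, adjusted p = 0.000593; unblocked 0.737) and by 0.68 against FoxD3 (blocked adjusted p = 0.000468), again lowest within every number. These 4 calls held in 7 of 7 blocked alternatives and none passed the unblocked fit with all arrays.

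Atf5, a factor of the same family, lay at 11.16, 12.03, 9.98 and 10.25 with the empty vector, at 10.58, 12.04, 10.20 and 10.26 with FoxD3 and at 10.71, 11.61, 9.73 and 9.71 with FoxD3-VP16. It fell by 0.41 with FoxD3-VP16 (blocked adjusted p = 0.0476; unblocked 0.906), which 2 of 7 alternatives held. Ddit4 (REDD1), an inhibitor of mTORC1, lay at 11.47, 12.07, 11.16 and 11.28, then 11.06, 12.75, 12.15 and 12.15, then 11.25, 11.91, 10.23 and 10.61 in the same order of vectors. Its pair differences between the inserts ran from -1.92 to 0.19, the array pair numbered 1 being the one above 0. Ddit4 fell by 1.03 with FoxD3-VP16 against FoxD3 in the blocked fit (adjusted p = 0.00543; unblocked 0.122), and without the arrays numbered 1 in the unblocked fit too (-1.40, adjusted p = 0.0359).

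Ppp1r15a (GADD34), which brings phosphatase back to eIF2 and so ends the response, lay at 9.12, 10.54, 10.35 and 10.21 with the empty vector, at 9.92, 10.75, 10.46 and 10.32 with FoxD3 and at 9.69, 10.06, 9.18 and 9.53 with FoxD3-VP16. It fell by 0.74 with FoxD3-VP16 against FoxD3 (blocked adjusted p = 0.0125; unblocked 0.149; 4 of 7 alternatives), and without the arrays numbered 1 by 0.91 in the unblocked fit (adjusted p = 0.0182). Asns, the asparagine synthetase, passed neither fit in any comparison. Its levels of 13.01, 14.09, 12.82 and 12.94 with the empty vector, 13.12, 13.94, 12.45 and 12.62 with FoxD3 and 13.13, 13.99, 12.63 and 12.87 with FoxD3-VP16 followed the number closely, which held 95.9% of its variance against 1.89% for the vector. Sesn2, a leucine sensor that restrains mTORC1, changed by 0.07 with FoxD3 and -0.02 with FoxD3-VP16 and passed neither fit. Asns carries the composite site in its promoter as Atf3, Trib3 and Chac1 do, and of these 4 the last 3 fell with FoxD3-VP16 in the blocked fit, where 5.41% of all genes fell. Of the 6 ATF4 arm genes whose window held no composite site, Atf4, Ddit3 and Atf5 fell too. Sites further from the start were not searched. Of the UPR arm genes with the site, Herpud1 fell and Kdelr1 did not pass (-0.10, blocked adjusted p = 0.696).

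**Figure D4:**
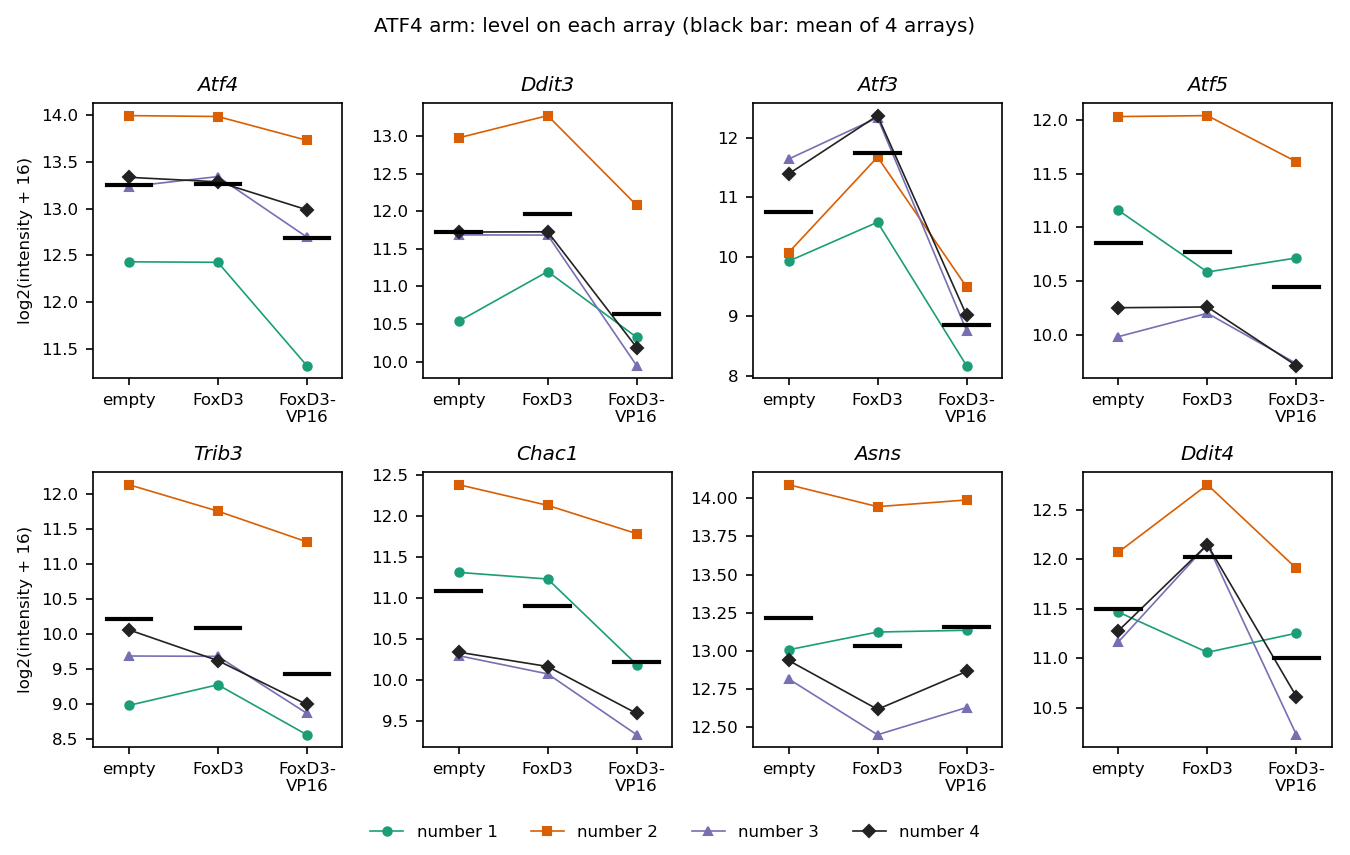
Level of 8 of the 10 ATF4 arm genes on each array as log2(intensity + 16), with lines joining arrays of the same number and black bars at the mean of 4. For Atf4, Ddit3, Atf3, Trib3 and Chac1 every line ends lowest at FoxD3-VP16, while the lines for Asns stay level and the arrays numbered 2 are highest in all genes but Atf3.

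The 4 genes at the head of the response did not share a direction. Ern1 lay at 9.98, 10.11, 9.98 and 10.14 with the empty vector, at 9.88, 9.98, 9.83 and 9.80 with FoxD3 and at 9.71, 9.76, 9.52 and 9.45 with FoxD3-VP16. The 3 groups did not overlap, with the empty vector highest and FoxD3-VP16 lowest, although the highest FoxD3 array and the lowest empty-vector array differed by less than rounding shows. Ern1 fell by 0.45 with FoxD3-VP16 (blocked SE 0.11, adjusted p = 0.0193; unblocked 0.203). With FoxD3 its change was -0.18 (blocked adjusted p = 0.242). The other 4 probe sets of Ern1 were dim (means 5.11 to 6.92) and had changes of -0.14 to 0.27 with FoxD3-VP16, and 3 of 7 blocked alternatives held the call. Eif2ak3 lay at 10.86, 11.39, 11.85 and 11.78 with the empty vector, at 10.63, 10.96, 11.17 and 10.83 with FoxD3 and at 10.85, 11.08, 10.68 and 10.99 with FoxD3-VP16. It was lower in 4 of 4 pairs with either insert and fell by 0.57 with FoxD3 (blocked adjusted p = 0.018; unblocked 0.173) and by 0.57 with FoxD3-VP16 (blocked adjusted p = 0.0313; unblocked 0.331), with 0.003 between the inserts. Without the arrays numbered 1 both passed the unblocked fit as well (-0.67, adjusted p = 0.0298, and -0.74, adjusted p = 0.0438), while 4 and 3 of 7 blocked alternatives held them. Other probe sets of Eif2ak3 were dim (means 5.09 and 4.64) and gave -0.37 and 0.10 with FoxD3, and 0.45 and 0.02 with FoxD3-VP16.

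Atf6 lay at 8.95, 10.04, 9.53 and 9.17 with the empty vector, at 7.47, 9.44, 9.34 and 8.96 with FoxD3 and at 8.96, 9.98, 10.21 and 10.63 with FoxD3-VP16. The groups overlapped, yet FoxD3 was lowest within every number. Atf6 was 2.20-fold higher with FoxD3-VP16 than with FoxD3 (log2 change 1.14, blocked SE 0.23, adjusted p = 0.00232; unblocked 0.134), which 7 of 7 blocked alternatives held, and its 3 probe sets gave 0.86 to 1.14. The differences from the empty vector, -0.62 with FoxD3 and 0.52 with FoxD3-VP16, did not pass (blocked adjusted p = 0.0793 and 0.171). They also depended on the probe set. Other probe sets of Atf6 (means 8.04 and 9.25) gave -0.07 and -0.05 with FoxD3, and 0.87 and 0.81 with FoxD3-VP16. Xbp1 lay at 13.32, 13.20, 12.86 and 12.91 with the empty vector, at 13.40, 13.34, 12.98 and 12.94 with FoxD3 and at 13.05, 13.12, 12.78 and 12.68 with FoxD3-VP16. It fell by 0.26 between the inserts (blocked SE 0.06, adjusted p = 0.00495; unblocked 0.37), its 4 probe sets giving -0.26 to -0.23. One level per probe set does not separate the spliced from the unspliced Xbp1 message.

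Both arms can be followed within numbers. The median difference over the 10 ATF4 arm genes between FoxD3-VP16 and the empty vector was -0.32, -0.45, -0.88 and -0.68 in the pairs numbered 1 to 4 (mean -0.58 ± 0.25, SD). Over the 21 UPR arm genes it was -0.29, -0.14, 0.13 and 0.13 (mean -0.04 ± 0.21), so the pairs numbered 3 and 4 were above 0 in the UPR arm and lowest in the ATF4 arm. With FoxD3 the ATF4 arm gave 0.21, -0.0004, 0.07 and 0.005 (mean 0.07 ± 0.10) and the UPR arm 0.02, 0.04, 0.27 and 0.27 (mean 0.15 ± 0.14). Between FoxD3-VP16 and FoxD3 the ATF4 arm gave -0.47, -0.43, -0.78 and -0.69, and the UPR arm -0.35, -0.13, -0.12 and -0.09. The lists were chosen with results of these data known, so these medians are a description and carry no test.

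The ATF4 arm also varied with the replicate number. The median deviation of its 10 genes from their own means was 0.94, 1.23 and 0.69 on the arrays numbered 2 of the empty vector, FoxD3 and FoxD3-VP16, and -1.001 to 0.11 on the other 9 arrays. In the UPR arm it stayed between -0.22 and 0.22 on all 12 arrays, although single genes varied with the number in both directions. On the arrays numbered 1, Hyou1 differed from the other arrays by 1.37 and Pdia4 by -1.22. The number held 60.5% of the variance summed over the ATF4 arm and the vector 31.9%, against 50.1% and 30.8% over all tested genes. In the UPR arm the vector held 48.8% of the summed variance, since Kdelr3 alone had 86.1% of a large variance from the vector. The median UPR arm gene had 9.32% from the vector and 59.4% from the number. Those medians were 14.2% and 71.4% in the ATF4 arm and 22.2% and 49.0% over all tested genes. The labels do not say what the arrays of one number share.

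**Figure D5:**
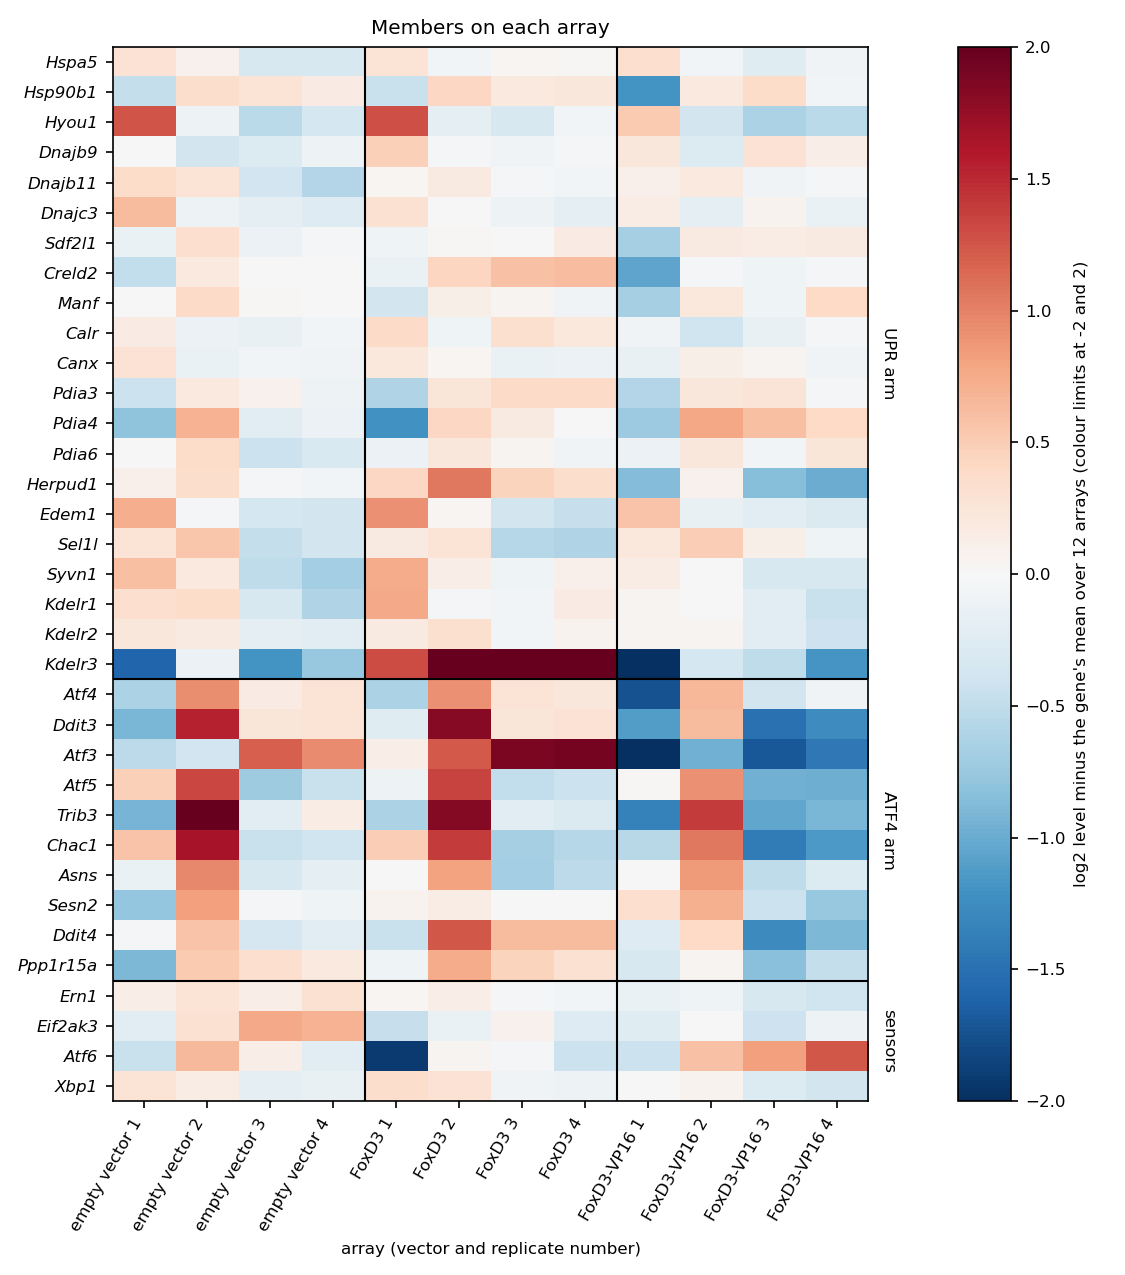
Deviation of each of the 35 members from its own mean on each of the 12 arrays, as log2 with colour limits at -2 and 2, with arrays in columns by vector and number and genes in rows by arm. The arrays numbered 2 are red for most ATF4 arm genes with every vector, the FoxD3-VP16 arrays numbered 3 and 4 are blue there, and Kdelr3 is red across all 4 FoxD3 arrays.

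Beyond the members, further genes of these pathways were counted by the same fits. The shares of all genes called in the blocked fit, beside which its counts below are to be read, were 11.8% up and 9.21% down with FoxD3, 5.73% and 5.41% with FoxD3-VP16, and 14.6% and 17.5% between the inserts. Of 19 other Atf4 targets in amino acid supply, 0 rose and 1 fell between the inserts unblocked, the amino acid transporter Slc7a5 (-0.82, SE 0.18, adjusted p = 0.0132). With FoxD3-VP16 against the empty vector 0 of them passed limma's unblocked fit (1 lower and 0 higher at an unadjusted p under 0.05), while 6 fell and 0 rose in the blocked fit. The blocked fit also called 2 rises and 3 falls of them with FoxD3 and 2 rises and 7 falls between the inserts. Of 12 other stress factors downstream of Atf4, 3 fell between the inserts unblocked. These were the transcription factor Cebpb (-1.53, adjusted p = 0.022), the cell cycle inhibitor Cdkn1a (-1.29, adjusted p = 0.00542) and the autophagy receptor Sqstm1 (-0.55, adjusted p = 0.0361). The blocked fit called 4 rises and 1 fall with FoxD3, 1 and 4 with FoxD3-VP16, and 1 and 5 between the inserts. Of the 12 cytosolic aminoacyl-tRNA synthetases, 0 passed limma's unblocked fit in the 3 comparisons (1, 0 and 0 at an unadjusted p under 0.05), and the blocked fit called 5 falls with FoxD3, 2 with FoxD3-VP16 and 3 between the inserts, with 0 rises. A further list held other eIF2 kinases, subunits of eIF2 and eIF2B, and Ppp1r15b, Ppp1cb and Impact, with 13 genes tested. Of these 13, 0 passed limma's unblocked fit (2, 3 and 5 at an unadjusted p under 0.05). The blocked fit called 3 rises and 1 fall, 1 and 2, and 2 and 6 in the same order.

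Of 31 other ER folding and degradation genes, Ngly1, which removes glycans from discarded proteins, fell with FoxD3 unblocked (-0.63, adjusted p = 0.0148), and 3 rose from FoxD3 to FoxD3-VP16. These were the J-domain protein Dnajc1 (1.17, adjusted p = 0.0203), the prolyl isomerase Fkbp14 (0.93, adjusted p = 0.00957) and Uggt1, the sensor of glycoprotein folding (0.51, adjusted p = 0.0208). The blocked fit called 3 rises and 5 falls, 4 and 0, and 7 and 5 in the same order as above. Of 30 translocation and ER to Golgi genes, the cargo receptor Surf4 fell between the inserts (-0.72, adjusted p = 0.0372), and the blocked fit called 6 rises and 0 falls with FoxD3, 0 and 0 with FoxD3-VP16, and 2 and 7 between the inserts. Of 17 other signalling factors of the response, the ER membrane protein Wfs1 rose with FoxD3 (1.15, adjusted p = 0.0463) and fell between the inserts (-1.27, adjusted p = 0.0163). The stress kinase Map3k5 (ASK1) fell with FoxD3 (-1.11, adjusted p = 0.044) and was higher with FoxD3-VP16 than with FoxD3 (1.81, adjusted p = 0.0014), as was the antioxidant factor Nfe2l2 (0.58, adjusted p = 0.0464). In the blocked fit these 17 gave 5 rises and 2 falls, 3 and 0, and 4 and 2. Among 13 cytosolic heat shock genes, which answer to misfolding outside the ER, the small heat shock protein Hspb1 rose with FoxD3 (2.15, SE 0.19, adjusted p = 9.8e-05) and Dnajb4 fell (-1.09, adjusted p = 0.0132). Between the inserts Hspb1 (-2.22, adjusted p = 3.15e-05) and Hsph1 (-0.56, adjusted p = 0.0415) fell and Dnajb4 rose (2.10, adjusted p = 0.000111). In the blocked fit the 13 gave 5 rises and 1 fall, 1 and 0, and 1 and 6.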

How the data were processed

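Gene expression was measured on 12 one-colour Affymetrix arrays of B16-F10 cells, 4 per vector, grouped by the vector in the labels. The authors deposited 1 intensity per probe set. MAS5 is named in the submitters' processing notes, with its version not given in the sources used here, while a label names dChip. The 2% trimmed means of all arrays lay at 500.003 to 500.004. Intensities became log2(intensity + 16), and because the array medians spanned 0.79 (limit 0.5) they were quantile normalized. Of 45101 probe sets, 64 were controls, 34945 had 1 gene symbol, 932 several and 9160 were not listed. The brightest probe set stood for each gene, the dimmest 40% of genes were left out, and a linear model with a variance trend (limma 3.58.1, R 4.3.3) was fitted to all 12 arrays with Benjamini-Hochberg adjustment over 10916 genes, with 9 residual and 3.98 prior degrees of freedom. Precision is limited by how few arrays there are.

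The labels give replicate numbers 1 to 4 for each vector. Deviations from the group means correlated at 0.37 to 0.67 in the 12 pairs of the same number. For number 3 against number 4 the 6 correlations were 0.37 to 0.54, and the remaining 30 were -0.51 to 0.12. Therefore a fit with the number as a block (6 residual and 7.30 prior degrees of freedom) is given where it changes a call. No arrays were identical. The alternatives were the pseudocount, normalization, filter, probe set rule, samples fitted, array weights and left-out arrays. The fit was run on simulated data with planted changes, where only the sign and bias of those changes had to pass. No limit was set there on false calls. Members and lists were chosen with earlier results of these data known. Members that passed either fit, with Hspa5, Xbp1, Atf4 and Ddit3, are described in full. From wider lists up to 4 genes per comparison are named, those with the largest change that passed the unblocked fit. Promoter windows are RefSeq's (GRCm38.p6), and motifs were searched with Python 3.11.15.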

Additional observations from a re-analysis of the deposited data

Results flagged for a closer look

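In 12 of 105 groups of 4 arrays (35 members with 3 vectors), 1 array lay far from the other 3 by Dixon's test at the 95% level, where chance gives about 5.25. All 12 were arrays numbered 1 or 2. Among arrays numbered 1, with FoxD3 Hyou1 lay at 11.35 (the others 9.74 to 10.00), Dnajb9 at 11.82 (11.28 to 11.33) and Pdia3 at 12.60 (13.45 to 13.58). With FoxD3-VP16, Sdf2l1 lay at 10.61 (11.42 to 11.46), Creld2 at 10.54 (11.51 to 11.57) and Edem1 at 11.998 (11.14 to 11.28). Among arrays numbered 2, Manf lay at 12.79 (12.40 to 12.42) and Asns at 14.09 (12.82 to 13.01) with the empty vector, and Herpud1 at 12.58 (11.87 to 11.96) and Trib3 at 11.76 (9.28 to 9.68) with FoxD3. With FoxD3-VP16, Herpud1 lay at 11.60 (10.52 to 10.67) and Trib3 at 11.32 (8.56 to 8.996). The cause was not tested. All values are log2(intensity + 16).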

How the results depend on the processing

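Across 32 other settings, 7 of them chosen after seeing the data, 51 results were followed. No called value changed sign. The counts of members moved with the replicate block and with array weights. The share of all genes called was counted only for the main unblocked and blocked fits. Whether the members moved more than other genes under the other settings was not tested. For FoxD3 against the empty vector (1 rose, 0 fell unblocked) the block gave 5 and 1, the block on values as deposited 5 and 1, with numbers 3 and 4 averaged 4 rises, with the mean of all probe sets 4 rises, and array weights 12 and 2; leaving out arrays gave 0 to 6 rises and 0 to 2 falls. For FoxD3-VP16 against the empty vector (0 and 0) the block gave 9 falls, as deposited 9, averaged 6, with mean probe sets 1 rise and 5 falls, and array weights 5 rises and 7 falls; leaving out arrays gave 0 to 1 rises and 0 to 11 falls. For FoxD3-VP16 against FoxD3 (0 and 3) the mean of all probe sets alone gave 1 rise, the block 3 and 14, as deposited 3 and 14, averaged 2 and 13, with mean probe sets 2 and 13, and array weights 3 and 10; leaving out arrays gave 0 to 3 rises and 2 to 14 falls. The cause was not tested. Leaving out single arrays moved the ATF4 arm's median between -0.21 and 0.41 with FoxD3, between -0.86 and -0.29 with FoxD3-VP16, and between -1.06 and -0.30 between the inserts, the extremes being set by arrays numbered 2. The UPR arm's medians moved by less than the spread between pairs. Of uncalled values, Atf4 with FoxD3 turned to -0.018 with the mean of all probe sets, with or without the block, and ran from -0.26 to 0.28 without single arrays. Ddit3 with FoxD3 ran from -0.20 to 0.65 and Hspa5 with FoxD3-VP16 from -0.051 to 0.16.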
